A study of Mus musculus with 14 samples.

Results

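The comparison sets the RARα peaks listed for the treatment AM+CD against those listed for AM580, to ask what an RXR agonist added to an RARα agonist changed in the places where RARα was detected. Its members are the 227 peaks of the AM+CD list and the 323 peaks of the AM580 list, 550 of the 1529 peaks in the 5 lists of the series. A peak was shared when it overlapped a peak of the other list by at least 1 bp, gained when AM+CD held it and AM580 did not, and lost in the reverse case. RARα was profiled by CUT&RUN, in which a nuclease tethered to an antibody releases the DNA around the bound protein, in 266-6 cells, a mouse pancreatic acinar line. Every group spent 24 h in stripped medium followed by 24 h with its ligand. AM580 is an RARα-selective agonist, and the label AM+CD was read as AM580 together with CD3254, an RXR-selective agonist, because its peak names join the abbreviations of those lists. The 3 other lists, used here for reference, are DMSO (vehicle), CD3254 alone and 9-cis retinoic acid, which activates receptors of both families. The labels name 3 AM+CD and 2 AM580 samples but 1 list for each treatment, so no difference below has a replicate check and no test between treatments was possible. The sources used here give neither the doses nor how the samples of a treatment were combined into its list.

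Retinoic acid receptors bind DNA as heterodimers with retinoid X receptors, on direct repeats of a short half-site whose consensus is AGGTCA. An RARα agonist exchanges corepressors for coactivators on the bound heterodimer, and the RXR partner has a ligand pocket of its own. Whether RXR ligand acts on the pair depends on the partner and its ligand, which is why the combined and the single agonist are compared. In the pancreas, retinoic acid signalling is known chiefly for its part in the development of endocrine and acinar tissue.

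Promoter sequence could be read for a pair of places in this comparison, one shared and one lost. They are shown because they are the 2 RefSeq windows (GRCm38.p6, from 250 bases before to 50 after a transcription start) among 32851 that an AM+CD or AM580 peak met. Capitals mark AGGTCA, searched on both strands.
Gm40237: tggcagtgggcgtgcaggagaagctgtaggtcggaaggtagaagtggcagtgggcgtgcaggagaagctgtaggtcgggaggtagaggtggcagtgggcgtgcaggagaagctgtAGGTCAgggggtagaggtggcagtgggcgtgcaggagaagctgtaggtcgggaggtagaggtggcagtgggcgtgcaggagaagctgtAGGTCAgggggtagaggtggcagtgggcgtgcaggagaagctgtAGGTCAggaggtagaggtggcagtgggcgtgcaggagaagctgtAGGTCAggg
Gm40369: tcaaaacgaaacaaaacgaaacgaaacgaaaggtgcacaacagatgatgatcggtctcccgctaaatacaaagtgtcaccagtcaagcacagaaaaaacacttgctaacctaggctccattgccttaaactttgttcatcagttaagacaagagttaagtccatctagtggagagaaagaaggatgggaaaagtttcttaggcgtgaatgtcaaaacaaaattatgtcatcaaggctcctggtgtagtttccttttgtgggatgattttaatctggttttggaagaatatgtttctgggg

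The window of Gm40237, a long non-coding RNA gene (chr4:118547156-118547455, plus strand), is a tandem repeat. It matched itself at 97.6% of positions when shifted by 88 bp, and held AGGTCA 4 times, at positions 116, 204, 248 and 292 from its 5′ end. At least 4 matches occurred in 5 of the 32851 windows (0.0152%), and at least 1 in 16.3%. All 4 lay within the AM+CD peak (118547216 to 118548706, rank 73 of its list) and the AM580 peak (118547238 to 118548704, rank 88), although both summits, at 118547975 and 118547948, stood downstream of the window. DMSO, CD3254 and 9-cis retinoic acid peaks met the same window. The window of Gm40369, a predicted protein-coding gene (chr6:47652651-47652950, plus strand), met a lost AM580 peak (47652926 to 47653199, fold 9.45) by its last 25 bases. DMSO and CD3254 peaks met this window too, by 86 and 100 bases. No AGGTCA was found in it. Neither window held the variant half-sites GGGTCA or AGTTCA, present in 4499 and 4597 windows. None of the spaced pairs AGGTCANAGGTCA, AGGTCANNAGGTCA and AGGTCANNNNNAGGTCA was found in them either, and these occurred in 0.0396%, 0.00913% and 0.00913% of all windows, on either strand. A match is a description of the sequence and was not tested as a binding site.

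The AM+CD list was largely contained in the AM580 list. Of its 227 peaks, 207 met an AM580 peak (91.2%, 95% Wilson interval 86.8 to 94.2), and 20 were gained (8.81%, 5.78 to 13.2). In the other direction 209 of 323 AM580 peaks met an AM+CD peak (64.7%, 59.3 to 69.7), and 114 were lost (35.3%, 30.3 to 40.7). The 207 and the 209 formed the same number of joined regions, 207, because 2 AM+CD peaks each spanned a pair of AM580 peaks. Against the other lists the shares of AM+CD peaks without a partner were 3.52% for CD3254, 10.6% for DMSO and 29.1% for 9-cis retinoic acid. For AM580 they were 9.29%, 23.2% and 47.4% in the same order. Intervals cover counting error, and neighbouring peaks are not independent.

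The surplus of lost over gained peaks is tied to list length. When each list was cut to its 200 peaks of highest −log10 q, 26 were gained and 25 lost, and 87.0% and 87.5% of the lists were shared. Lists of equal length that overlap nearly one to one must give nearly equal gains and losses. This cut therefore cannot show whether either direction prevailed. The recovered background was higher for AM+CD, at 2.13 fragments per base against 0.985 for AM580. Background means the lowest local coverage recovered from the deposited fold and −log10 p values of a list. It is only a guide to depth, because the control and the combining of samples are not stated.

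The numbering of the peaks limits how the losses can be read. Peak names carry the number of each peak in its call, and the AM+CD list kept 227 of at least 701 numbers (32.4%) against 323 of at least 734 (44.0%) for AM580. At a lost place, the AM+CD names on either side show whether a numbered peak is missing between them. At 3 of the 114 lost places no number was missing, and the missing numbers could account for at most 110 of the 114 (96.5%). At 5 of the 20 gained places no AM580 number was missing, and the missing numbers could account for at most 15. A lost place thus means that none was listed with AM+CD. At the 3 places without a missing number, the AM+CD call had numbered no further peak. At the others, whether the call had held one was not tested, and a missing number does not show where between its neighbours a peak lay. Listed peaks can be far apart, and these shares were not set against those at other places.

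The 3 losses without a missing number were all single regions held by AM580 alone. They lay in the span of Kcnh6, a voltage-gated potassium channel gene (chromosome 11, 106032055 to 106032378, fold 9.07, 17 fragments at the summit), in the span of Arhgap21, a GTPase-activating protein gene (chromosome 2, 20899897 to 20900211, fold 7.56, 14 fragments), and 36315 bp from Rhou, a gene of an atypical small GTPase (chromosome 8, 123617372 to 123617614, fold 8.06, 15 fragments). Their ranks in the AM580 list were 229, 254 and 242 of 323. The 5 gains without a missing number were all in dense clusters, 2308 to 31898 bp from the nearest AM580 peak. Short intervals between listed peaks leave less room for a missing number, and the part of spacing in this was not tested. A dense cluster is a run of 3 or more joined regions in which no gap exceeds 100 kb. One was on chromosome 4 (3052943 to 3053328, fold 6.57) and a pair on chromosome 5 near the predicted genes Gm10354 (14995509 to 14996001, fold 5.80) and Gm17019 (15019395 to 15019808, fold 7.72). The other pair was on chromosome 8, near 4930467E23Rik (19760147 to 19760657, fold 5.21) and at 20131425 to 20132149 with no protein-coding gene within 50 kb (fold 7.04). The 3 named losses were singled out after their values were seen.

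Shared peaks filled the top of both lists. The first 75 AM580 peaks by −log10 q all met an AM+CD peak, and the first lost one had rank 76. With the AM580 list divided by −log10 q into 4 blocks of nearly equal size, 1 of 81 peaks was lost in the highest block (1.23%, 0.218 to 6.67), then 13 of 81, 34 of 81 and 66 of 80 (82.5%, 72.7 to 89.3). Lost peaks had a median −log10 q of 7.98 and a median summit of 20 fragments, against 59.3 and 102 for shared AM580 peaks. Of the 20 gains, 16 stood in the lowest block of the AM+CD list (28.6% of that block, 18.4 to 41.5), and the others had ranks 25, 44, 83 and 96. In the third block 0 of 57 were gained, for which the Wilson interval reaches 6.31%. Median −log10 q was 10.7 for gained and 119 for shared AM+CD peaks.

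**Figure D1:**
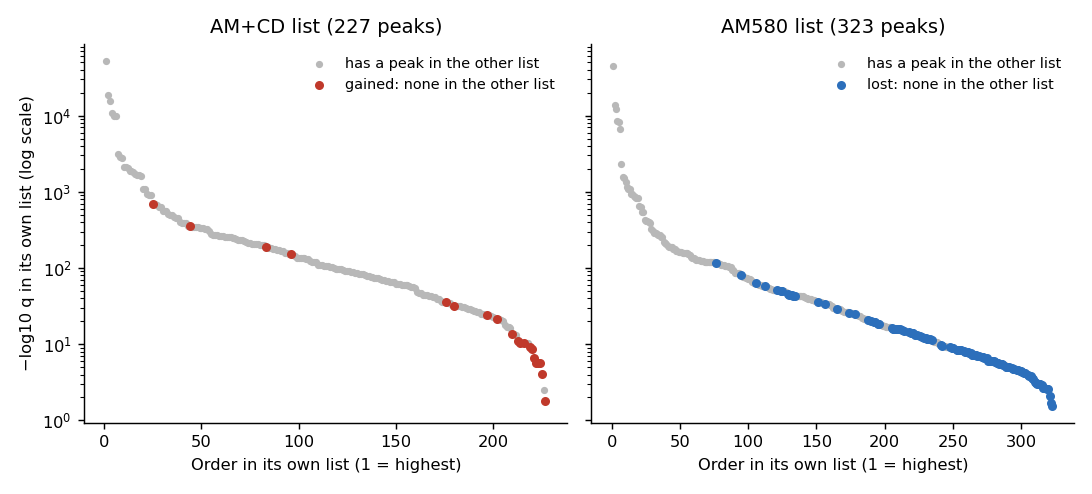
Each point is a peak, placed by its order in its own list (x axis) and its −log10 q there (y axis, log scale), for AM+CD at left and AM580 at right. Grey points have a peak in the other list; the first coloured point is at rank 25 in the AM+CD list (gained) and at rank 76 in the AM580 list (lost).

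**Figure D2:**
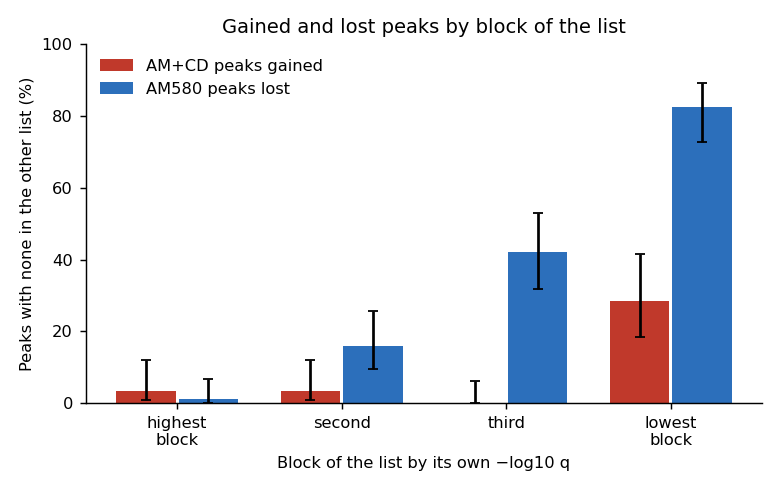
Bars give the percent of peaks without a partner in each of 4 blocks of the list, from highest to lowest −log10 q, with 95% Wilson intervals, for AM+CD (gained) and AM580 (lost). The lost share runs from 1.23% to 82.5%, and the gained share is 28.6% in the lowest block and at most 3.51% in the others.

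The 4 gains of highest rank were not weak peaks of their list. One, in the satellite block of chromosome 9 (3004514 to 3004800, rank 25), had a fold of 2.87 over a local background of 1375 fragments, and stood 844 bp from the nearest AM580 peak. That gap was the smallest for any gained peak. The next lay 14745 bp from Dpy19l2, a gene of sperm head formation (chromosome 9, 24542015 to 24542302, rank 44, fold 32.4, 316 fragments). Another was in the span of 2210408I21Rik (chromosome 13, 77438910 to 77439160, rank 83, fold 27.1, 178 fragments). The fourth was in the span of Sos2, which encodes an activator of Ras (chromosome 12, 69654057 to 69654341, rank 96, fold 26.4, 142 fragments), 27.7 kb downstream of the annotated start. All 4 also had a CD3254 peak, and all but the one at 2210408I21Rik had a DMSO peak. At 3 of these 4 places DMSO, CD3254 and AM+CD thus listed a peak, and AM580 and 9-cis retinoic acid did not. The AM580 names listed on either side left room for a missing peak around each of them, without showing where it lay.

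The remaining gains outside the clusters were weaker. Those with a CD3254 peak lay 6087 bp from B230307C23Rik (chromosome 16, 98022843 to 98023314, fold 10.6), upstream of Jazf1, a zinc finger co-regulator gene (chromosome 6, 53084405 to 53084875, fold 7.07, 15.8 kb from its start), and 46273 bp from Slc1a4, a neutral amino acid transporter gene (chromosome 11, 20378986 to 20379455, fold 4.80). A further pair without a gene within 50 kb lay on chromosome 4 (78773783 to 78774164, fold 7.04) and chromosome 8 (123600607 to 123601217, fold 5.44). The regions at B230307C23Rik and at 78773783 on chromosome 4 had peaks in all lists but AM580. In clusters, the gain at Gm51598 on chromosome 8 (55519234 to 55519482, fold 8.25) also met CD3254.

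AM+CD alone held 5 of the gains, and all were near the floor of the list, with ranks 220 to 227 and summits of 11 to 19 fragments. One was in the span of Fetub, a secreted protease inhibitor gene (chromosome 16, 22928509 to 22928838, fold 5.44), 8.53 kb downstream of its start. One stood 20221 bp from Rchy1, whose product ubiquitinates p53 (chromosome 5, 91928245 to 91928621, fold 5.76). The others, on chromosomes 12 (60390208 to 60390604) and 14 (68276858 to 68277175, and 91970932 to 91971411), had no protein-coding gene within 50 kb.

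Among the losses, the leading single regions had high folds in the AM580 list. The first stood 9383 bp from Fam107a, an actin-associated stress-response gene (chromosome 14, 8286635 to 8286887, fold 25.3, 110 fragments). It had DMSO and CD3254 peaks as well.

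Among the next losses was a region 40895 bp from Chrm3, the muscarinic receptor through which acetylcholine stimulates acinar secretion (chromosome 13, 9834306 to 9834591, fold 17.6, 44 fragments). It was beyond the far end of the gene, 526 kb from the nearest annotated start. Myl12b, a myosin regulatory light chain gene, had one at 9993 bp (chromosome 17, 70963658 to 70963970, fold 19.0). Asmt, the gene of the last enzyme of melatonin synthesis, held one 0.792 kb downstream of its start (X chromosome, 170673230 to 170673594, fold 17.7). These 3 also had DMSO and CD3254 peaks, as did a region in the span of Sh3rf1, a scaffold ubiquitin ligase gene (chromosome 8, 61318371 to 61318738, fold 11.6).

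Slc22a29, which encodes a transporter of organic anions (chromosome 19, 8252234 to 8252549, fold 17.7), and Epm2a, the laforin gene (chromosome 10, 11491975 to 11492281, 32311 bp away, fold 12.3), had lost peaks shared with CD3254 and not with DMSO. The same was true at 157877250 to 157877493 of chromosome 1 (fold 20.2), where no protein-coding gene lay within 50 kb. At these 3 places each agonist given alone had a peak and AM+CD had none listed. Other single losses without a gene nearby were on chromosome 6 (3201260 to 3201662, fold 16.1, in all 3 reference lists), chromosome 8 (15519794 to 15520104, fold 17.5, with DMSO and CD3254) and chromosome 4 (78513221 to 78513560, fold 11.6, in AM580 alone). Each of the single losses named here by their rank had at least 1 missing AM+CD number between the listed AM+CD peaks on either side. Those peaks can be far away: the nearest stood 8.38e+06 bp from the Epm2a loss and 3.74e+07 bp from the Slc22a29 one. A missing number therefore does not place a peak at the loss.

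Among the strongest losses outside single regions were peaks on contigs and in a dense cluster. They included unplaced contig JH584304 (89461 to 90301, rank 106, fold 2.80, 351 bp from an AM+CD peak, the smallest gap for a loss), contig GL456396 (9566 to 10114, fold 4.85), and a cluster peak 27707 bp from Sfi1, whose product binds centrin (chromosome 11, 3103885 to 3104143, fold 6.35).

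In the full lists, most gained and most lost peaks also had a peak with CD3254, and fewer had one with the other lists. With every list cut to 200 peaks, CD3254 from 493, 8 of 26 gains met CD3254 (30.8%) and 16 of 25 losses did (64.0%). The cut shortened the reference list and changed which peaks counted as gained or lost. In full, CD3254 held 75.4% of losses (66.8 to 82.4) and 70.0% of gains (48.1 to 85.5). DMSO held 52 of 114 (45.6%, 36.8 to 54.8) and 9 of 20 (25.8% to 65.8%), and 9-cis retinoic acid 7.89% (4.21 to 14.3) and 10.0% (2.79 to 30.1). Of the shared AM+CD peaks 99.0%, 93.7% and 76.8% met these lists. The intervals for gains and losses overlap for each reference list, and with 20 gains they are wide. By pattern, 45 losses were also in DMSO and CD3254, 34 in CD3254 alone, 7 in all 3 reference lists, 2 in 9-cis retinoic acid alone and 26 in none. Gains split into 6 with DMSO and CD3254, 6 with CD3254 alone, 2 with all 3, 1 with DMSO alone and 5 with none. The reference lists differ in length and in recovered background. CD3254 is the longest of the 5, with 493 peaks, and has the highest background, 2.36 fragments per base.

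**Figure D3:**
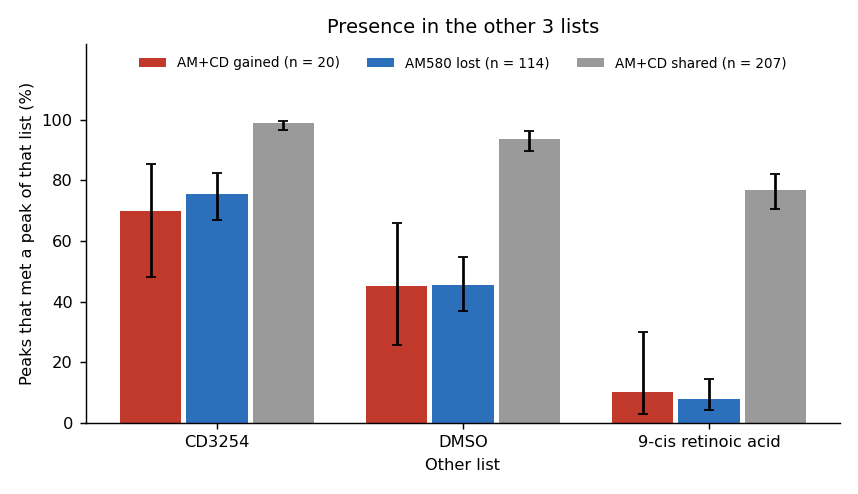
Bars give the percent of gained, lost and shared peaks that met a peak of the CD3254, DMSO or 9-cis retinoic acid list, with 95% Wilson intervals. Gained and lost peaks stand at 70.0% and 75.4% for CD3254 and at 9 of 20 and 45.6% for DMSO, below the shared peaks at 99.0% and 93.7%.

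The 26 losses in no other list were weak, with a median −log10 q of 5.12 (1.56 to 19.6) and summits of 9 to 36 fragments. The 86 shared with CD3254 had a median −log10 q of 9.04 (1.70 to 118) and summits of 8 to 597 fragments, so the ranges overlapped. Where a lost AM580 peak met a CD3254 peak, the summits were close: the median distance was 24 bp over 87 pairs. It was 14.5 bp over the 14 pairs of gained and CD3254 peaks.

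By kind of place, the losses were spread over single regions and dense clusters. Of the 114, 55 were single regions (48.2%, 39.3 to 57.3), 40 were in dense clusters (35.1%), 16 on contigs and 3 in high-signal regions of satellite, ribosomal or mitochondrial sequence (2.63%). Among shared AM580 peaks the counts were 89, 43, 52 and 25 of 209. Of the gains 13 were single, 6 in clusters, 1 in a high-signal region and 0 on contigs. With 20 peaks, the Wilson interval for contigs reaches 16.1%. Taken by class, AM580 lost 48.2% of its cluster peaks, 38.2% of its single regions, 23.5% of its contig peaks and 10.7% of its high-signal peaks. The corresponding gained shares of the AM+CD list were 12.5%, 12.7%, 0% and 3.85%.

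**Figure D4:**
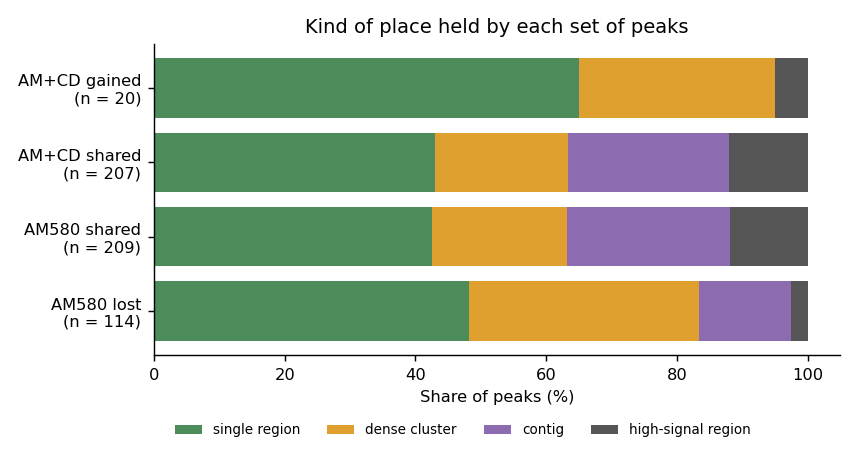
Horizontal bars divide each set of peaks (gained, shared in each list, lost) into single regions, dense clusters, contigs and high-signal regions, as percent of the set. Dense clusters make up 35.1% of the losses and 20.6% of the shared AM580 peaks, and no gain is on a contig.

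Chromosomes 8 and 5 carried the most losses. On chromosome 8, 22 of 30 AM580 peaks were lost and 4 of 12 AM+CD peaks were gained, and on chromosome 5 the counts were 11 of 15 and 3 of 7. On chromosome 9, by contrast, 2 of 25 AM580 peaks were lost. Most of the chromosome 8 losses lay in dense clusters. A cluster between 20275231 and 20682577, around Gm15319 and Gm21119, held 12 AM580 and 4 AM+CD peaks, with 8 lost and 0 gained. A cluster at 19703215 to 19802575 near 4930467E23Rik held 4 and 2. On chromosome 5, the cluster around Speer4c and Speer4d, members of a testis-expressed duplicated family (15462575 to 15712262), held 4 AM580 peaks and 0 AM+CD peaks. Its neighbour around Speer4e (14914439 to 15054880) held 5 and 2, and none of these coincided, so 5 were lost and 2 gained there. Whether the clusters hold near-identical copies of sequence was not examined. Reads from such copies can be placed at any of them, and the sources used here do not say how multiply mapping reads were treated. Clusters were named after their values were seen.

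Where both lists had a peak, the positions were close. In the 209 overlapping pairs the overlap covered at least 77.6% of the shorter peak, and in 158 pairs the shorter lay wholly within the longer. The pair of least overlap was 759 bp from Arhgap25, a Rac GTPase-activating gene (chromosome 6, 87457478 to 87457785 in AM+CD), which was also the single place that these 2 lists held and no other did. Its peaks had ranks 226 of 227 and 296 of 323. Summits lay a median of 11 bp apart, and 174 of 209 pairs (83.3%) were within 50 bp. The largest distance, 4516 bp, was within a ribosomal DNA unit on chromosome 17 whose peaks were 5769 bp wide in both lists. AM+CD peaks were the wider in 181 pairs and the narrower in 27, with medians of 564 and 473 bp and a median ratio of 1.05. Contigs (51 of 52 pairs) and clusters (36 of 43) showed this too. The recovered background was higher in the AM+CD call, and the part of depth in the widths was not tested.

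**Figure D5:**
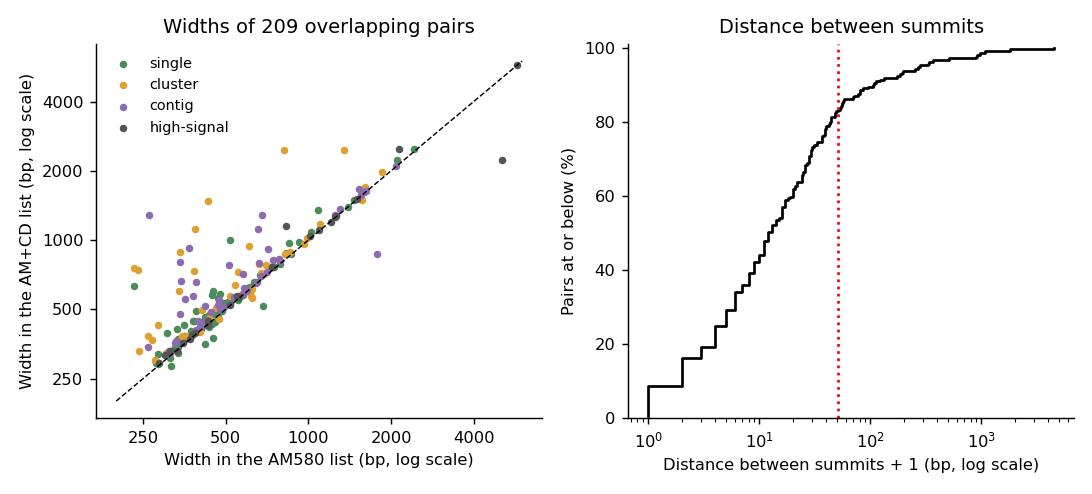
At left, the width of each overlapping peak in AM+CD against its width in AM580 (bp, log scales, dashed line of equality); at right, the percent of pairs at or below each distance between summits (bp plus 1, log scale, dotted line at 50 bp). Most points lie above the line (181 of 209), and 83.3% of summits are within 50 bp.

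The shared single regions of highest −log10 q in the AM+CD list were high in both lists. The first was on chromosome 12 (3109872 to 3110199, no gene within 50 kb, rank 6 with AM+CD and 5 with AM580). Its AM+CD summit held 8312 fragments over a local background of 205, against a median summit of 115 for shared single regions. The high-signal peak in the span of Chl1 held 8452 over 209, and the high-signal regions were listed from general knowledge. Next came the regions in the spans of Mdga2, a neuronal cell adhesion gene (chromosome 12, 67059167 to 67059927, ranks 18 and 19), and Cldn34d, a claudin family gene (X chromosome, 76598550 to 76599206, ranks 24 and 28). After them stood those 21051 bp from Ly6c2, a leukocyte surface antigen gene (chromosome 15, 75085484 to 75087110, ranks 26 and 31), in the span of Kctd16, a GABA-B receptor accessory gene (chromosome 18, 40308020 to 40308490, ranks 34 and 37), and 35072 bp from Pak3, a kinase gene (X chromosome, 143483005 to 143483294, ranks 35 and 27). Ranks come from lists of different length and show no change.

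On the main chromosomes 27.1% of losses (19.2 to 36.7) lay in a protein-coding span, against 41 of 156 shared AM580 peaks (26.3%) and 3 of 20 gains (15.0%). Among single regions, 35 of 89 shared AM580 peaks and 3 of 13 gains lay in a span. Of the single losses 18 of 55 did. Besides those named, they included Gpt2, a mitochondrial alanine aminotransferase gene (chromosome 8, 85499595 to 85499867, 7.19 kb downstream of the start, fold 6.05), Slc30a4, a zinc transporter gene (chromosome 2, 122682127 to 122682392, fold 6.12), and Cldn14, a tight junction gene (chromosome 16, 93992939 to 93993345, fold 6.87). These 3, chosen after their values were seen, also met CD3254 and not DMSO. The RefSeq table gives gene spans, so exons, introns and UTRs within a gene were not distinguished.

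No gene of 8 lists, all of whose 131 genes were matched, had a gained, lost or shared peak within 50 kb. The lists covered 28 retinoic acid receptor targets such as Cyp26a1 and Rarb, 20 genes of retinoid metabolism and transport, and 28 nuclear receptors and co-regulators. They also held 24 acinar secretory genes such as Cpa1 and Cel, 10 acinar transcription factors such as Ptf1a, and 10 markers each of duct, endocrine and stromal cells. Over all 21896 protein-coding genes, 0.0959% were within 50 kb of a gained peak, 0.452% of a lost one and 0.543% of a shared one, so counts near 0 are also what the background share gives for lists of this size. Within 100 kb the shared peaks reached 1 of the 28 receptor targets, Fgf8, and 1.02% of all protein-coding genes. Peak positions do not show whether the cells express acinar genes, and the cell type could not be checked against its markers here.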

How the data were processed

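RARα CUT&RUN of 266-6 cells was deposited as 1 peak list per treatment. Per the submitters' processing notes, the authors' tools were MACS2 2.2.7.1, bedtools, SAMtools 1.18, Bowtie2 2.5.1 and FastQC, on mm10. The sources used here do not state the order of steps, the control or the q threshold. Each deposited narrowPeak row gives a peak's position and summit. The authors' fold enrichment (a ratio over local background), −log10 p and −log10 q belong to their own list and were used within it. Only the backgrounds recovered from them were set side by side between lists. The deposited score repeats the −log10 q and was not used.

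Overlaps, Wilson intervals (95%), place classes and distances were computed with Python 3.11.15, pandas 2.3.3 and scipy 1.17.1. Positions have 1-based starts. Whole summit pileups were recovered from each fold and −log10 p as MACS2 computes them (largest relative error 1.23e-05 in the AM580 list). Overlap and recovery were tested on simulated data. Place classes used all 5 lists, with 8 high-signal regions listed from general knowledge. Genes and promoter windows came from RefSeq GRCm38.p6, the assembly that mm10 names.

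Members, gene lists and classes were chosen with earlier results of these data known. Named places were all gains, the 12 losses of highest −log10 q overall and among single regions, the 6 leading shared single regions, and those nearest the overlap rule. One place selected by this rule is not reported here. Each is named by the protein-coding gene it meets, or the nearest within 50 kb.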

Additional observations from a re-analysis of the deposited data

How the results depend on the processing

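Of 58 alternative values, 43 stayed within 1.5 times the count or within the Wilson interval of the share, and 15 did not. With single regions alone, 13 peaks were gained and 55 lost, and 60.0% of losses met CD3254. At a −log10 q of at least 10 in every list, 46 were lost, 80.8% of AM580 peaks met AM+CD, 61.5% of gains were in clusters, contigs or high-signal regions, and 87.0% of losses and 92.3% of gains met CD3254. At a minimum of 5, 70.9% of AM580 peaks met AM+CD. With 200 peaks in each list, 25 were lost, 87.5% of AM580 peaks met AM+CD, 65.4% of gains were in those classes, and 64.0% of losses and 30.8% of gains met CD3254, whose list was the most shortened. Requiring 50% of both peaks to overlap, 64.3% of losses met CD3254. Fewer peaks entered under the minimum −log10 q, the 200-peak and the single-region settings. No paired analysis was possible because each treatment has 1 list. Leaving out a replicate was not possible for the same reason. Reads per library were not used here, so depth was judged through the recovered background alone.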
